A study of Mus musculus with 23 samples.

Results

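The 78 genes described here encode the proteins of the mitochondrial ribosome in the mouse. They are the protein-coding genes of the deposited count table whose symbol is Mrpl or Mrps followed by a number, 49 for the large subunit and 29 for the small subunit, of 53379 gene IDs in all. Pseudogenes with such symbols, 5 in number, were left out. All 78 had enough counts to be tested. The cells were CD4+ T cells of C57BL/6 mouse spleen, taken by sorting for CD45+CD3+CD4+CD8- and grown in culture for 72 h before RNA was extracted. Unstimulated cultures had IL-2 alone at 30 IU/ml, a cytokine that keeps T cells alive. Stimulated cultures had antibodies to CD3 and CD28, which engage the T cell receptor complex and its costimulatory receptor, and the labels leave unclear whether these held IL-2 too. Each kind of culture was grown without niacin or with 5 mM niacin. The cells were labelled wild type or Gpr109a-/-, a knockout of the niacin receptor gene now named Hcar2. This gives 8 groups of 3 libraries, except for 2 libraries of unstimulated knockout-labelled cells with niacin. Whether replicates came from separate animals is not in the labels, and p-values therefore measure only how far these libraries spread, which may be technical.

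Mitochondria carry their own small genome and their own ribosome. The mitoribosome makes the 13 proteins that this genome encodes, all of them parts of the respiratory chain or of ATP synthase, while its own protein parts are encoded in the nucleus, made in the cytosol and imported. Its large subunit holds the peptidyl transferase centre, the stalk that calls in translation factors and the exit tunnel, and its small subunit decodes the mRNA. Some of its proteins have family members in the bacterial ribosome, and others are found in mitochondria only. Activated T cells are known to build up mitochondria and to need mitochondrial translation for growth. By structure, the products of Mrps30 and Mrps18a sit in the large subunit despite their names, and that of Mrps36 belongs to the 2-oxoglutarate dehydrogenase complex.

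Total counts ran from 20604050 to 30090018 in 22 libraries and were 13205565 in replicate 3 of the unstimulated knockout-labelled group. Hcar2 went against the genotype labels: it lay between 0 and 0.0414 CPM in the wild-type-labelled libraries and between 0 and 1.37 CPM in the knockout-labelled ones, so every direction by genotype below is that of the labels. CPM are counts scaled to the library's total with TMM factors. The 8 CD4 T cell markers summed to between 4029.9 and 7283 CPM, with Cd4 itself at 400 to 653 CPM. CD8 T cell, B cell, myeloid and erythroid or platelet markers summed to at most 29.2, 14.5, 10.6 and 7.84 CPM. NK cell markers summed to 11.2 to 41.5 CPM unstimulated and 72.5 to 109 CPM stimulated. In that list Eomes, which T cells can also express, rose in all 4 stimulation comparisons while Ncr1, Klrb1c and Klrk1 fell in all 4. The part of other cells in the results below was not tested.

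Replicate 3 of the unstimulated knockout-labelled group stood apart in the mitoribosomal genes. Its log2 ratio of CPM to libraries 1 and 2 of that group had an SD of 0.81 over the 78 genes, against 0.17 between libraries 1 and 2. Of the 78, 6 were more than 2-fold higher there and 11 more than 2-fold lower. Mrps34 read 106 CPM in it against 21.1 and 24.1 CPM, and Mrpl34 read 106 CPM against 31.8 and 36.8 CPM, whereas Mrpl13 was low in it at 13.9 CPM. The ratio followed the GC content of the coding transcripts (Pearson r = 0.59 and Spearman rho = 0.60 over 78 genes of the same libraries). It did so over 12755 protein-coding genes as well (r = 0.54). Counts on rRNA genes made up 3.67% of this replicate 3, against 1.12 to 2.20% of the other libraries. The name of its count column alone lacks the tag jax, to which no meaning is given here. A tie to GC content with a smaller spread was seen in replicates 1 and 2 of the niacin-treated stimulated wild-type-labelled group against replicate 3 (r = 0.57, SD 0.35) and in replicate 1 of the unstimulated wild-type-labelled group against the other two (r = 0.47, SD 0.25). These correlations describe genes within libraries, which are not independent replicates. Where a stimulation value of a member or list described below changes its call or its sign without replicate 3 of the unstimulated knockout-labelled group, or without both replicates 1 and 2 of the niacin-treated stimulated wild-type-labelled group, it is given without them too. Leaving out both of the latter leaves 1 library in that group, which is assumed to vary like the others.

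**Figure D1:**
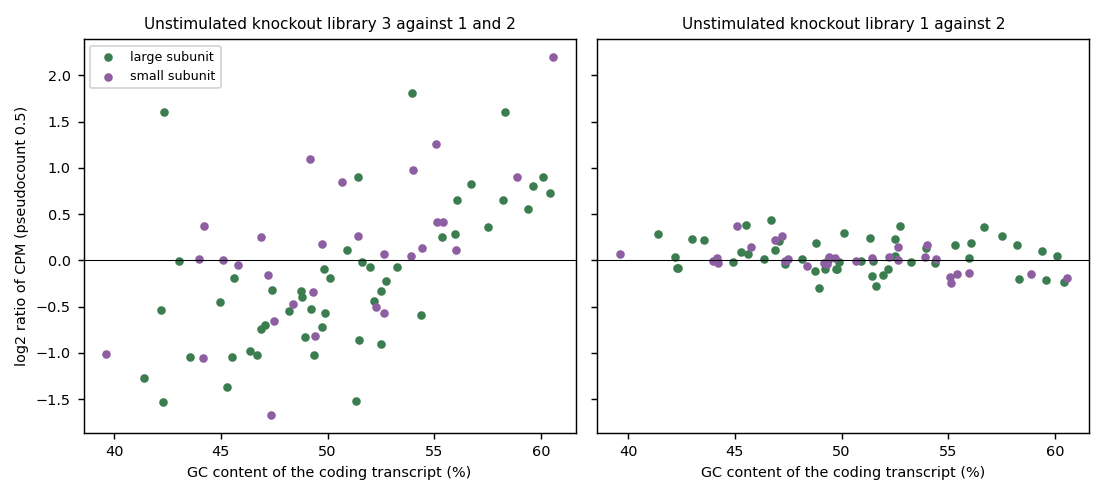
Log2 ratio of CPM between libraries of the unstimulated knockout-labelled cells for the 78 genes (vertical axis, pseudocount 0.5 CPM) against the GC content of the coding transcript in percent (horizontal axis). In the left panel library 3 is set against libraries 1 and 2 and the points climb with GC content, with an SD of 0.81. In the right panel library 1 is set against library 2 and the points stay near 0, with an SD of 0.17.

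Stimulation raised most mitoribosomal protein genes in every background. Each stimulation comparison set the stimulated libraries against the unstimulated libraries of the same genotype label and niacin condition, by edgeR's quasi-likelihood test with Benjamini-Hochberg adjustment over 16882 genes. In wild-type-labelled cells without niacin 54 of 78 rose and 1 fell, where 23.4% of all genes tested rose and 21.7% fell. In knockout-labelled cells without niacin 64 rose and 3 fell (25.2% and 27.5% of all genes). With niacin 58 rose and none fell in wild-type-labelled cells (26% and 26.6% of all genes), and 68 rose and none fell in knockout-labelled cells (24.5% and 25.3%). The median log2 fold change over the 78 genes was 0.60, 0.86, 0.67 and 0.93 in the same order, while the median over all genes tested lay between -0.13 and -0.07. In these bulk samples a change in the share of cells that express a gene and a change in RNA per cell cannot be told apart.

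The same genes recurred: 45 of 78 rose in all 4 stimulation comparisons, 27 of the large and 18 of the small subunit, where 16.1% of all genes did so. No member fell in all 4, and 13.3% of all genes did. Another 5 members rose in none, and these were Mrpl23, Mrpl24, Mrpl38, Mrpl53 and Mrps26. In 66, 64, 63 and 74 of the 78 every stimulated library lay above every unstimulated one in the 4 comparisons in the order above, against 30.3%, 27.8%, 30.2% and 35.4% of all genes. Leaving out replicate 3 of the unstimulated knockout-labelled group gave 71 higher and 2 lower calls in the knockout-labelled cells without niacin, with a median of 0.84. Leaving out both replicate 1 and replicate 2 of the niacin-treated stimulated wild-type-labelled group gave 32 higher calls there, with 1 stimulated library left in the comparison. The 78 genes took 0.314 to 0.374% of all counts in the 11 unstimulated libraries and 0.459 to 0.565% in the 12 stimulated ones.

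**Figure D2:**
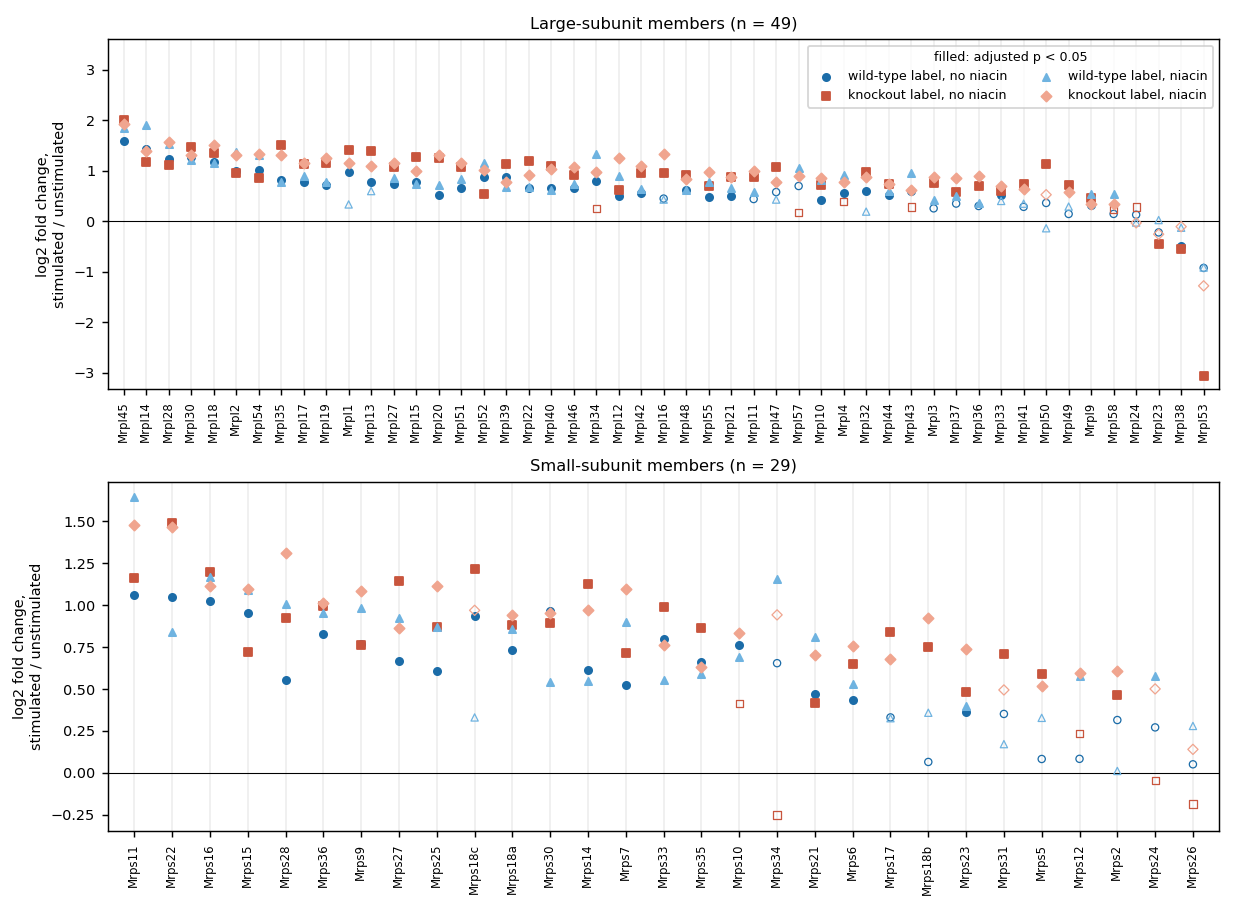
Log2 fold change on stimulation (vertical axis) of each large-subunit gene (upper panel, n = 49) and small-subunit gene (lower panel, n = 29), ordered by the mean over the 4 comparisons. Colour and shape give the genotype label and niacin condition, and filled points passed an adjusted p of 0.05. Mrpl45 and Mrps11 stand at the left end with values of at least 1.06 in all 4 comparisons, and 5 genes carry no filled point above 0.

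Many start regions of these genes hold short sequences that are known to bind factors with broad roles in mitochondrial gene expression. RefSeq windows of GRCm38.p6, from 250 bases before to 50 bases after a transcript start, were found for 69 of the 78 genes (75 windows). Letters typical of sites for nuclear respiratory factor 1 (GCGC and GCGC on either side of NT, here NRF1-type) were in 17.3% of these windows, against 6.38% of the windows of all protein-coding genes and 9.65% of those of genes tested. An ETS-type core (CCGGAAG), the kind bound by GABP, was in 34.7%, against 11.6% and 17.1%. A YY1-type sequence (AAGATGGCG) was in 10.7%, against 1.83% and 2.87%. At least 1 of these motifs was in 54.7% of the windows, against 17.9% and 26.7%. Both strands were searched, and an ETS-type and a YY1-type match can share the letters AAG.

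The E-box CACGTG, the kind bound by Myc, was in 9.33% of the members' windows, against 7.84% of all protein-coding windows and 9.64% of those tested, and CCAAT was in 40%, against 38.2% and 37.4%. The 67 windows of cytosolic ribosomal protein genes held the ETS-type core in 37.3%, the NRF1-type and the YY1-type sequence in 7.46% each, and at least 1 of these in 50.7%, close to the 54.7% of the members. Members with a motif and members without it had close medians of the mean log2 change on stimulation: 0.81 for the 13 genes with an NRF1-type match and 0.76 for the 56 without, 0.76 (26 genes) and 0.79 (43) for the ETS-type, 0.83 (8) and 0.74 (61) for the YY1-type, and 0.86 (5) and 0.76 (64) for the E-box. A match describes letters, not a bound site.

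The 120 bases before the start of 8 genes are shown 5′ to 3′ on the strand of the gene, to set upstream regions with a match beside others that lack one. The NRF1-type matches are in capitals in the first 2, and all of them read as NRF1-type on the opposite strand. The regions are chr11:97315596-97315715 for Mrpl45 (plus strand) and chr1:79775898-79776017 for Mrpl44 (plus strand).
Mrpl45: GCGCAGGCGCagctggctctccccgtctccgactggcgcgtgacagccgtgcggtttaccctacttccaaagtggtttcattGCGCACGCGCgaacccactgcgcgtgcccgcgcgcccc
Mrpl44: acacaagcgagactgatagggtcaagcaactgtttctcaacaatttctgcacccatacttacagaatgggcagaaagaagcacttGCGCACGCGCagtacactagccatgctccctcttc
The capitals mark the ETS-type core, read on either strand, in Mrps22 (chr9:98601680-98601799, minus strand), Mrpl52 (chr14:54426789-54426908, plus strand) and Mrpl34 (chr8:71464806-71464925, plus strand).
Mrps22: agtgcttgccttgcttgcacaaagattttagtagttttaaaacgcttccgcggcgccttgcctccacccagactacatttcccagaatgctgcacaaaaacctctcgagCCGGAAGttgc
Mrpl52: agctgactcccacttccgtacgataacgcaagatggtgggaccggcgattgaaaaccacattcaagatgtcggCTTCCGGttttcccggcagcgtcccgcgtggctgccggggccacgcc
Mrpl34: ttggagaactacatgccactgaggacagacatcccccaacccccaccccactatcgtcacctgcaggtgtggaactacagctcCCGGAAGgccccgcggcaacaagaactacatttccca
In Mrpl20 (chr4:155802758-155802877, plus strand) they mark the E-box.
Mrpl20: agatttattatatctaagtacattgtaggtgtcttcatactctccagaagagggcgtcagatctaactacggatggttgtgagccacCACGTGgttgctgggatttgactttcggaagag
Mrps36 (chr13:100744660-100744779, minus strand) and Mrps9 (chr1:42851113-42851232, plus strand) have none of these 4 motifs in the 120 bases shown.
Mrps36: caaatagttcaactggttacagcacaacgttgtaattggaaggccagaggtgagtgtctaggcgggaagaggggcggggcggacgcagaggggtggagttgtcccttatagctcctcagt
Mrps9: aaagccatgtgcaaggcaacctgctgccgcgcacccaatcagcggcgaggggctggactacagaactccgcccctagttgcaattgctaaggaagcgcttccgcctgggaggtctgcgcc
Mrpl45 carried 2 NRF1-type matches, the first on its outermost 10 bases, and had the highest mean log2 change of the 78 genes, 1.84. Mrps36 and Mrps9, with no capitals, had 0.95 and 0.90, above Mrpl44 (0.65) and Mrpl34 (0.84), which have a match in the bases shown. Mrps9 does hold an NRF1-type match elsewhere in its whole window. It is thus among the 13 genes counted above as having an NRF1-type match.

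Among the large-subunit genes Mrpl45 changed most. Its protein lies near the exit tunnel, where the mitoribosome is tied to the inner membrane, and the gene spans chr11:97315716-97329920. Unstimulated, wild-type-labelled libraries read 37.1, 28.6 and 25.0 CPM and knockout-labelled ones 28.3, 28.6 and 19.0 CPM. Unstimulated with niacin they read 32.9, 27.4 and 21.5 CPM and, for the knockout label, 23.6 and 29.5 CPM. The lowest value of all 12 stimulated libraries lay far above the highest of these. Stimulated, the wild-type-labelled libraries read 94.0, 87.8 and 89.5 CPM without niacin and 91.3, 110.0 and 93.4 CPM with it. The knockout-labelled libraries read 98.6, 103 and 102 CPM without niacin and 101, 103 and 99.0 CPM with it. The log2 fold changes were 1.58 ± 0.18 (SE, adjusted p = 5.6e-07) and 1.99 ± 0.18 (2.7e-08) without niacin, wild-type label first, and 1.85 ± 0.18 (6e-08) and 1.93 ± 0.21 (4.3e-07) with it, all by edgeR. No groups overlapped.

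Mrpl14, a family member of bacterial L14 at the face between the subunits, was next. It read 28.8, 27.4 and 24.4 CPM in unstimulated and 75.1, 64.5 and 76.7 CPM in stimulated wild-type-labelled cells. Under the knockout label it read 25.0, 23.3 and 35.7 CPM unstimulated and 71.3, 57.3 and 61.0 CPM stimulated. The stimulated libraries were higher throughout, and the log2 fold changes were 1.42 and 1.18 without niacin and 1.90 and 1.39 with it (wild-type label first). Mrpl28, a family member of bacterial L28, rose by 1.24 and 1.12 without niacin and by 1.52 and 1.56 with it. Mrpl30 rose by 1.28, 1.48, 1.21 and 1.31, and Mrpl2, whose bacterial relative L2 lies by the peptidyl transferase centre, by 0.99, 0.95, 1.37 and 1.30, in the order wild-type label, knockout label, then both with niacin. All these calls passed the test.

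Mrpl18 had the highest level per length of all members, a mean of 103 RPKM (CPM per kilobase of the deposited gene length). Its protein is the mitochondrial L18 family member of the central protuberance. It read 95.1, 90.5 and 76.4 CPM unstimulated and 194, 182 and 216 CPM stimulated in wild-type-labelled cells. In knockout-labelled cells it read 95.1, 77.3 and 75.3 CPM unstimulated and 213, 213 and 203 CPM stimulated. With niacin the stimulated libraries read 178, 201 and 174 CPM under the wild-type label and 221, 242 and 210 CPM under the knockout label, above all of the unstimulated libraries, whose highest was 113 CPM. The log2 fold changes were 1.17, 1.34, 1.15 and 1.51 in the order just used, each past the test. Of the exons of Mrpl18, 10.1% overlap those of Tcp1. The sources used here do not give the strand setting of the counting, and reads in the overlap cannot be told apart.

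Mrpl12 and Mrpl10 encode the stalk, which recruits translation factors, and Mrpl12 protein is also known to bind the mitochondrial RNA polymerase. Mrpl12 read 84.2, 69.0 and 61.3 CPM unstimulated and 91.7, 93.4 and 117 CPM stimulated in wild-type-labelled cells. In knockout-labelled cells it read 69.4, 61.1 and 103 CPM unstimulated, the highest in library 3, and 115, 116 and 127 CPM stimulated. No stimulated library lay below an unstimulated one of its label, and the log2 fold changes were 0.49 ± 0.19 (adjusted p = 0.039) and 0.62 ± 0.19 (0.0096) by edgeR. With niacin they were 0.89 ± 0.19 (0.00058) and 1.24 ± 0.22 (0.00012). Mrpl10 rose by 0.41, 0.72, 0.82 and 0.86. Mrpl58, which encodes the peptidyl-tRNA hydrolase ICT1 that is built into the large subunit, rose with niacin (0.54 and 0.34) and had 0.14 and 0.23 without it. The difference between the effects with and without niacin passed for no member.

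At the other end Mrpl38 fell in both comparisons without niacin. It is found in mitochondrial ribosomes only and lies at chr11:116131817-116138868. Wild-type-labelled libraries read 67.4, 64.0 and 68.7 CPM unstimulated and 45.1, 47.3 and 49.5 CPM stimulated. Knockout-labelled libraries read 56.7, 65.6 and 108 CPM unstimulated, the highest again library 3, and 45.4, 57.8 and 53.1 CPM stimulated. The groups did not overlap under the wild-type label and did overlap under the knockout label. The log2 fold changes were -0.50 ± 0.18 (adjusted p = 0.026) and -0.55 ± 0.18 (0.012) by edgeR. The second was -0.23 and not called without replicate 3 of the unstimulated knockout-labelled group, nor was it called without stimulated replicate 1 (-0.46). The first lost its call without any of 4 libraries, stimulated replicates 1 and 2 and unstimulated replicates 1 and 3 (-0.49 to -0.46). With niacin the values were -0.13 and -0.11.

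Mrpl23, a family member of bacterial L23 at the tunnel exit, fell in knockout-labelled cells without niacin by 0.45 on the log2 scale (adjusted p = 0.030, edgeR) and had -0.22, 0.02 and -0.26 elsewhere. That call was lost in 5 of 13 alternatives, among them leaving out stimulated replicate 1 (-0.45) or 2 (-0.39) or unstimulated replicate 2 (-0.37). Mrpl24 passed nowhere, with 0.13, 0.28, -0.03 and -0.03. Mrpl9 rose in all 4 comparisons but by little (0.31, 0.46, 0.53 and 0.34), and Mrpl49 rose under the knockout label (0.71 and 0.59) with 0.14 and 0.29 under the wild-type label. Mrpl53 was the lowest of all members, at 6.93 CPM or less in every library and 713 counts in total, and 88.0% of its exon length overlaps Ccdc142os and Gm42688. It fell in knockout-labelled cells without niacin (-3.06, and -2.03 without library 3 of the unstimulated group, still called) and had -0.92, -0.92 and -1.28 in the others. Mrpl34, among the 3 highest in level at 99.4 RPKM, rose in 3 comparisons (0.80, 1.32 and 0.97). In knockout-labelled cells without niacin it had 0.26, and 1.01 with a call once library 3 of the unstimulated group was left out.

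Of the small-subunit genes Mrps11 and Mrps22 rose most. Mrps11 is the mitochondrial member of the bacterial S11 family of the platform. It read 33, 25.0 and 25.0 CPM unstimulated and 57.2, 52.1 and 63.8 CPM stimulated in wild-type-labelled cells. Under the knockout label it read 22.5, 26.7 and 33 CPM unstimulated and 61.2, 60.7 and 61.7 CPM stimulated. The groups were well apart, and log2 fold changes were 1.06 ± 0.15 and 1.16 ± 0.15 without niacin and 1.64 ± 0.15 and 1.48 ± 0.17 with it, each past edgeR's test. Of its exon length 7.97% overlaps Mrpl46, the next member along chromosome 7, on the other strand. Mrpl46 rose by 0.65, 0.91, 0.74 and 1.07.

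Mrps22 (chr9:98588730-98601660) encodes a small-subunit protein with no bacterial relative. It read 16.7, 18.8 and 16.6 CPM unstimulated and 33.8, 35.9 and 38.1 CPM stimulated in wild-type-labelled cells. The knockout-labelled libraries read 17.3, 15.6 and 15.8 CPM unstimulated and 44.0, 47.7 and 45.5 CPM stimulated. With niacin it read 21.7, 16.2 and 15.9 CPM unstimulated and 28.9, 36.5 and 31.0 CPM stimulated under the wild-type label. Under the knockout label with niacin it read 18 and 16.4 CPM unstimulated and 47.0, 48.9 and 46.6 CPM stimulated. All 12 stimulated libraries lay above all 11 unstimulated ones, and the 6 stimulated libraries labelled knockout lay above the 6 labelled wild type. The log2 fold changes on stimulation were 1.05, 1.49, 0.84 and 1.46, each past the test, in the order wild-type label, knockout label, then both with niacin.

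Other small-subunit genes that rose in all 4 comparisons were Mrps16 (1.02, 1.20, 1.17 and 1.12), Mrps15 (0.95, 0.72, 1.09 and 1.1) and Mrps28 (0.56, 0.92, 1.01 and 1.31). Mrps36, whose product works with 2-oxoglutarate dehydrogenase, rose as well (0.83, 0.99, 0.95 and 1.02). So did the pair whose products sit in the large subunit, Mrps30 (0.97, 0.89, 0.54 and 0.95) and Mrps18a (0.73, 0.88, 0.86 and 0.94). The mitochondrial S18 family has 3 members, and the other two behaved less evenly. Mrps18b rose under the knockout label (0.75 and 0.92) and had 0.07 and 0.36 under the wild-type label. Mrps18c rose without niacin (0.94 and 1.22) and had 0.33 and 0.97 with it. Mrps18c varied widely between replicates: its 3 stimulated wild-type-labelled libraries with niacin read 24.2, 26.9 and 51.1 CPM.

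Mrps26, Mrps24, Mrps12, Mrps2, Mrps5 and Mrps31 had the lowest mean change of the small subunit. Mrps26 was called in none of the 4 comparisons. It read 99.7, 82.1 and 83.8 CPM unstimulated and 92.5, 83.2 and 99.6 CPM stimulated in wild-type-labelled cells, which overlapped. In knockout-labelled cells it read 86.9, 88.4 and 187 CPM unstimulated and 101, 108 and 109 CPM stimulated, so that library 3 of the unstimulated group lay above all stimulated libraries and the other two below. Its log2 values were 0.05, -0.19, 0.28 and 0.14, in the order wild-type label, knockout label, then both with niacin. The second turned to 0.27 (not called) without library 3, and the third to -0.06 without replicates 1 and 2 of the stimulated group. Mrps24, with the highest level of the small subunit at 64.9 RPKM, rose in wild-type-labelled cells with niacin (0.58) and had 0.27, -0.05 and 0.50 in the others. In its unstimulated knockout-labelled group the libraries read 68.6, 77.5 and 175 CPM, and without library 3 the -0.05 turned to 0.50 and was called. The call with niacin was lost, at 0.24, without replicates 1 and 2 of the stimulated group.

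Mrps12, whose bacterial relative S12 lies at the decoding centre, rose with niacin (0.58 and 0.60) and had 0.08 and 0.23 without. Its knockout-labelled libraries without niacin read 34.6, 38.3 and 68.5 CPM unstimulated and 56.5, 51.2 and 57.9 CPM stimulated. Without library 3 of the unstimulated group the 0.23 became 0.60 and was called, as large as with niacin. The 0.58 became 0.17 and lost its call without replicates 1 and 2 of the stimulated group. Mrps2 (0.46 and 0.61) and Mrps5 (0.59 and 0.52) rose under the knockout label, and had 0.32 and 0.01, and 0.08 and 0.33, under the wild-type label. Mrps31 rose in knockout-labelled cells without niacin (0.71) and had 0.35, 0.17 and 0.49 in the others. Mrps34 rose in wild-type-labelled cells with niacin (1.16) and had 0.65, -0.25 and 0.94 elsewhere. Without replicate 3 of the unstimulated knockout-labelled group its value in that background was 0.89 and was called, and the 1.16 became 0.53 and lost its call without replicates 1 and 2 of the stimulated group. Of its exon length 77.8% overlaps Mapk8ip3 and Nme3.

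Of the 109 calls on named members, 83 held when any single library was left out and 26 were lost without at least 1. In wild-type-labelled cells without niacin, Mrpl12 lost its call without stimulated replicate 3 (0.37) or unstimulated replicate 2 (0.47) or 3 (0.39). Mrpl10 lost its call there without any of 4 libraries (0.29 to 0.41), Mrpl34 likewise (0.71 to 0.83), Mrpl9 without any of 5 (0.27 to 0.33) and Mrps18c without any of 5 (0.66 to 1.02). Mrps28 (0.43) was not called there without unstimulated replicate 3, nor was Mrps21 (0.41), which also lost its call without stimulated replicate 3 (0.37). In knockout-labelled cells without niacin, Mrpl12 lost its call without unstimulated replicate 2 (0.47), Mrps31 without unstimulated replicate 3 (0.44) and Mrps21 without any of 4 libraries (0.39 to 0.41).

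With niacin under the wild-type label, Mrps24 lost its call without any of 5 libraries (0.44 to 0.61), Mrps12 without any of 4 (0.49 to 0.56) and Mrps33 without stimulated replicate 3 (0.45) or unstimulated replicate 3 (0.44). Under the knockout label with niacin the unstimulated group has 2 libraries, and leaving out 1 of them leaves a lone library that is assumed to vary like the others. Mrpl34 (0.92 and 1.01), Mrpl47 (0.61 and 0.95), Mrpl49 (0.54 and 0.63), Mrpl58 (0.36 and 0.32) and Mrpl9 (0.30 and 0.39) lost their calls without either of these, replicate 2 then 3. Mrps12 (0.40), Mrps2 (0.54) and Mrps5 (0.41) lost them without replicate 2, and Mrps33 (0.65) without replicate 3. Leaving out a stimulated library also ended the call of Mrps12 (any of 3, 0.57 to 0.62), Mrpl47 (replicate 2 at 0.59 or 3 at 0.85), Mrpl49 (replicate 1 at 0.58 or 3 at 0.57), Mrpl58 (replicate 1 at 0.33 or 2 at 0.30) and Mrpl9 (replicate 1 at 0.31 or 2 at 0.35). All of these values are log2 fold changes and kept their sign. With both replicates 1 and 2 of the stimulated group left out, Mrpl12 (0.56), Mrpl34 (0.95), Mrpl46 (0.52), Mrpl58 (0.31), Mrps10 (0.47), Mrps33 (0.72) and Mrps36 (0.62) lost their calls under the wild-type label with niacin as well, and Mrpl23 went from 0.02 to -0.18.

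**Figure D3:**
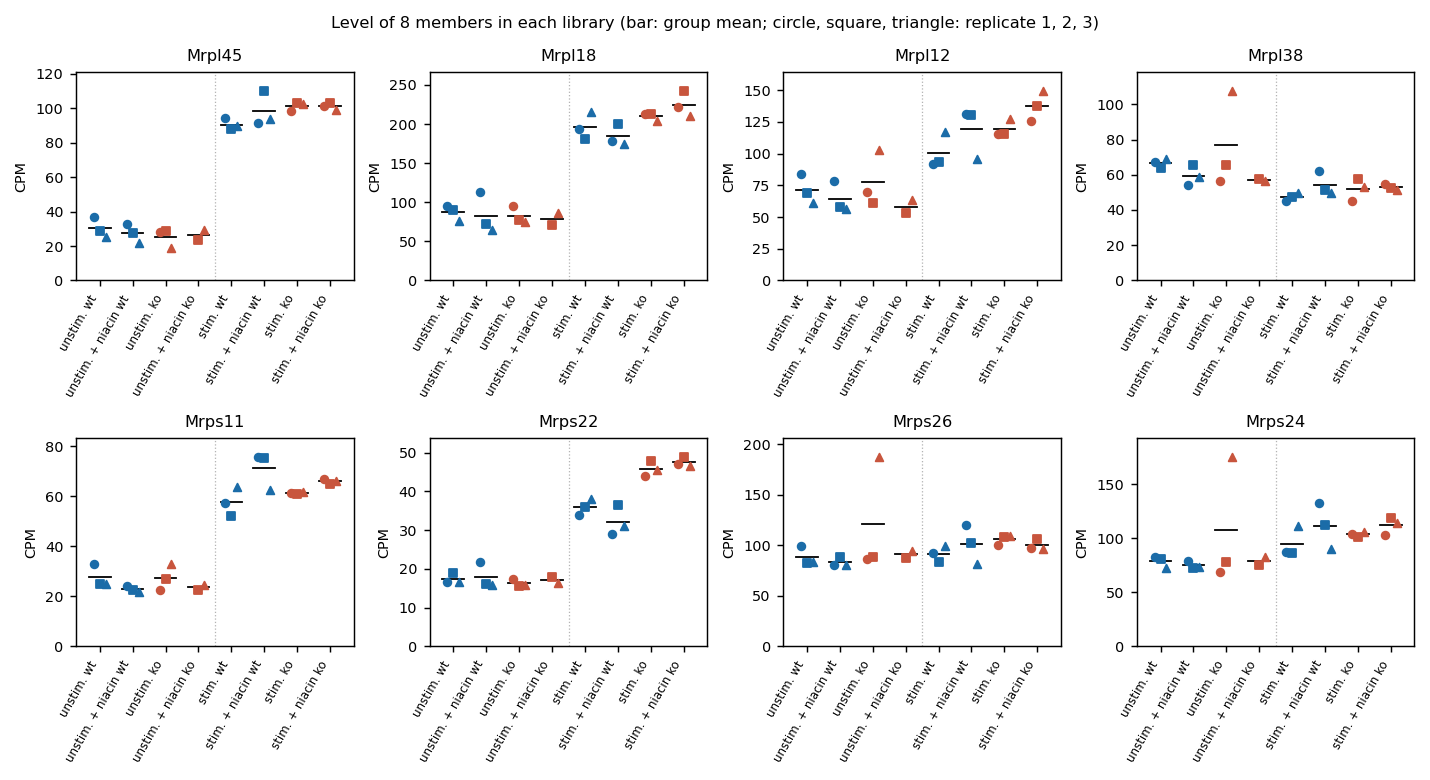
CPM (vertical axes, from 0) of 4 large-subunit and 4 small-subunit genes in every library of the 8 groups (horizontal axes, unstimulated groups left of the dotted line), with wt and ko for the genotype labels. Points are libraries and bars are group means. Mrpl45, Mrpl18, Mrps11 and Mrps22 show no overlap between stimulated and unstimulated libraries, and the triangle of the unstimulated knockout-labelled group stands at 108, 187 and 175 CPM in Mrpl38, Mrps26 and Mrps24.

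The subunits were compared by their calls and then, within each library, by the ratio of their levels. Of the 49 large-subunit genes 34, 40, 36 and 44 rose (wild-type label, knockout label, then both with niacin) and 1, 3, 0 and 0 fell. Of the 29 small-subunit genes 20, 24, 22 and 24 rose and none fell. Of all genes tested 23.4%, 25.2%, 26% and 24.5% were called higher and 21.7%, 27.5%, 26.6% and 25.3% lower. Median log2 fold changes were 0.59, 0.91, 0.68 and 0.97 for the large and 0.62, 0.76, 0.59 and 0.92 for the small subunit, so the order of the subunits was not the same in all 4. Levels ranged widely within each: in the large subunit from 1.81 RPKM for Mrpl53, 3.59 for Mrpl47 and 3.83 for Mrpl23 up to 86.1 for Mrpl28, 99.4 for Mrpl34 and 103 for Mrpl18. In the small subunit they ran from 4.49 RPKM for Mrps25, 5.00 for Mrps33 and 6.00 for Mrps10 to 53.1 for Mrps21, 58.7 for Mrps15 and 64.9 for Mrps24. These levels depend on the length used: by the coding transcript alone Mrps10 stood at 47.6 RPKM and Mrpl23 at 25.4 RPKM.

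The ratio is taken within a library, where scaling between libraries plays no part. The log2 ratio of summed RPKM, large over small, was 1.20 ± 0.04 (SD, n = 3) in unstimulated and 1.33 ± 0.03 in stimulated wild-type-labelled cells. In knockout-labelled cells it was 1.12 ± 0.12 unstimulated and 1.31 ± 0.01 stimulated. With niacin it was 1.18 ± 0.06 and 1.33 ± 0.04 under the wild-type label, and 1.17 ± 0.01 (n = 2) and 1.32 ± 0.03 under the knockout label. The 11 unstimulated libraries lay between 0.98 and 1.25 and the 12 stimulated ones between 1.29 and 1.37, so they did not overlap. Without replicate 3 of the unstimulated knockout-labelled group the lowest unstimulated value was 1.13. Niacin and genotype label made little difference beside this: within a stimulation state the ranges of the 4 groups overlapped. No test was made of a score summed over chosen genes.

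The higher ratio depended in part on the genes with the highest levels. Without the 3 highest genes of each subunit, 7 of 12 stimulated libraries fell below the highest unstimulated one. The median was then 1.40 over unstimulated and 1.44 over stimulated libraries, a smaller gap in the same direction. The difference of the median log2 RPKM of the subunits went the other way, with a median of 0.82 over unstimulated and 0.73 over stimulated libraries, and 11 of 12 stimulated libraries lay below the highest unstimulated value. Mrpl18 went from 5.25% to 7.62% of the summed large-subunit RPKM (medians over unstimulated and stimulated libraries), Mrpl28 from 4.26% to 6.35% and Mrpl14 from 2.43% to 3.87%. Mrpl38 went from 2.28% to 1.01%. In the small subunit Mrps24 went from 11.2% to 8.86%, Mrps26 from 4.30% to 2.85% and Mrps12 from 7.57% to 6.27%, while Mrps15 went from 8.01% to 9.84% and Mrps11 from 2.33% to 3.66%. The groups also stayed apart with Mrps30 and Mrps18a moved to the large subunit, and, by narrow gaps, with the length of the coding transcript or with CPM in place of RPKM.

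**Figure D4:**
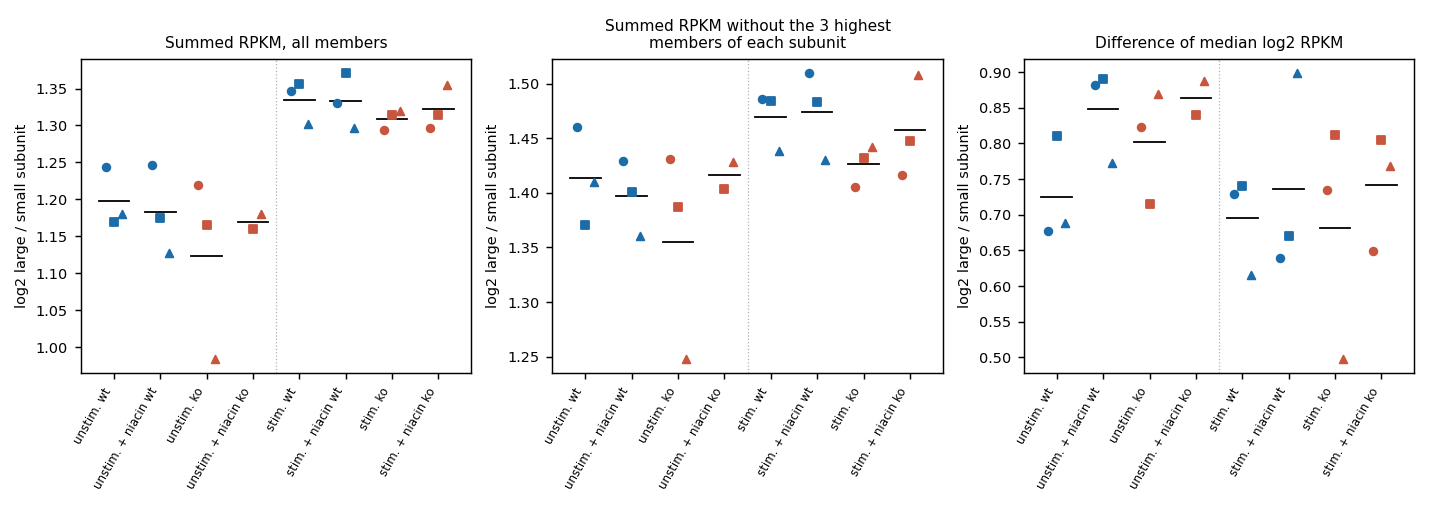
Log2 ratio of large- to small-subunit levels in every library of the 8 groups, by summed RPKM (left panel), after leaving out the 3 highest genes of each subunit (middle panel) and as the difference of median log2 RPKM (right panel). Points are libraries and bars are group means. By summed RPKM the unstimulated libraries reach 1.25 at most and the stimulated ones start at 1.29. After leaving out the highest genes 7 of 12 stimulated libraries lie below the highest unstimulated one at 1.46.

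Genes with a family member in the bacterial ribosome and genes specific to mitochondria both rose. Of 48 bacterial-family genes 35, 41, 35 and 44 rose and 0, 1, 0 and 0 fell. Of 29 mitochondria-specific genes 18, 22, 22 and 23 rose and 1, 2, 0 and 0 fell. Among the 46 members whose exons overlap no other gene 33, 38, 35 and 42 rose and 1, 2, 0 and 0 fell. Cytosolic ribosomal protein genes, measured in the same libraries, rose in 70, 65, 75 and 72 of 77 cases with none falling, and 62 of 77 rose in all 4. Their median log2 fold changes were 0.90, 0.95, 1.15 and 0.99. Of all genes tested 23.4%, 25.2%, 26% and 24.5% were called higher and 21.7%, 27.5%, 26.6% and 25.3% lower. Called higher in all 4 were 16.1% of all genes.

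Of the 5 mitoribosomal proteins that carry other symbols 4, 3, 4 and 4 rose and none fell. Dap3, a GTP-binding protein of the small subunit, rose by 0.90, 1.02, 1.09 and 1.03, and Chchd1 and Aurkaip1 rose in all 4 comparisons too. Gadd45gip1 rose in 3, and in the fourth, knockout-labelled cells without niacin, it had 0.52, or 1.31 with a call without library 3 of the unstimulated group. Ptcd3 passed in none, with -0.29, 0.37, -0.69 and 0.12, where the 0.37 turned to -0.02 without that library. Of 27 genes for mitoribosome assembly and rRNA modification 3, 8, 7 and 5 rose and 6, 6, 6 and 3 fell, where 23.4%, 25.2%, 26% and 24.5% of all genes were called higher and 21.7%, 27.5%, 26.6% and 25.3% lower. The same shares of all genes apply to the 5 genes above and to the lists that follow. For the wild-type label with niacin the 7 and 6 became 1 and 2 without replicates 1 and 2 of the stimulated group. In that list Mtg1, a GTPase of large-subunit assembly, rose and Mettl17, a small-subunit assembly factor, fell in all 4, though Mtg1 had 0.63 and no call under the wild-type label with niacin without those replicates. Tfb1m, the dimethyltransferase of the small rRNA, passed in 1 comparison, knockout-labelled cells without niacin (0.90).

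Of 15 translation factors 4, 6, 6 and 5 rose and 1, 0, 0 and 1 fell. Tufm, the mitochondrial elongation factor Tu, rose by 0.55, 0.93, 0.94 and 0.84, and its exchange factor Tsfm by 1.09, 1.28, 1.39 and 1.69. Mrrf, the ribosome recycling factor, and Slirp, an RNA-binding protein, rose in all 4, Gfm1 in 3 (its call with niacin under the wild-type label was lost, at 0.48, without those replicates) and the initiation factor gene Mtif2 in none. Lrpprc, which encodes the partner of Slirp, fell in wild-type-labelled cells without niacin (-0.54). There the stimulated libraries spread widely, at 46.5, 70.4 and 89.3 CPM, and the unstimulated ones read 108, 97.5 and 93.4 CPM. Among 11 genes for transcription and copying of the mitochondrial genome, 1, 2, 1 and 1 rose and 4, 3, 5 and 2 fell. Tefm rose, and Tfb2m and the DNA polymerase gene Polg fell, in all 4. Without those replicates none of the 5 that fell with niacin under the wild-type label was called, with Tfb2m at -0.92 and Polg at -0.63. Tfam, which packs the genome and starts its transcription, had 0.30, 0.48, 0.16 and 0.30, called in the second but not without library 3 of the unstimulated group (0.32), and the RNA polymerase gene Polrmt had -0.63, -0.95, -0.26 and -0.32, called in both without niacin, with -0.54 for the second without that library.

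Of 8 tested regulators of mitochondrial biogenesis 1, 2, 1 and 1 rose and 3, 2, 3 and 1 fell. Myc, which drives ribosome and biomass genes in activated T cells, read between 177 and 448 CPM unstimulated and between 581 and 908 CPM stimulated. The ranges did not overlap, and it rose by 1.58, 1.23, 1.92 and 1.65. Ppargc1b, a coactivator of mitochondrial genes, read 30.0 to 65.6 CPM unstimulated and 7.40 to 19.3 CPM stimulated. It fell in all 4 comparisons, with log2 values of -1.44, -1.91, -1.13 and -1.56. The related coactivator gene Pprc1 had -0.87, -0.27, -0.61 and -0.12, and Gabpa, the DNA-binding subunit of GABP, had -0.56, 0.14, -0.67 and 0.02, both called in the wild-type-labelled comparisons. Without replicates 1 and 2 of the niacin-treated stimulated group Gabpa had -0.42 with niacin and no call. Its 0.14 turned to -0.07 once the unstimulated knockout-labelled library 3 was left out. Nrf1 passed in none, Esrra fell in knockout-labelled cells without niacin (-0.64, but -0.03 and no call without library 3 of the unstimulated group), and Ppargc1a had too few counts to be tested.

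None of the transcripts that the mitoribosome reads or contains rose past the test. Of the 13 protein genes of the mitochondrial genome 8 could be tested, and 5, 2, 6 and 4 of these fell. The others, mt-Co2, mt-Co3, mt-Atp6, mt-Atp8 and mt-Nd4l, read at most 0.342 CPM in any library, and why was not tested. Not all leaned down: without niacin mt-Co1 read 1062, 2359 and 1937 CPM unstimulated and 2679, 2597 and 2445 CPM stimulated under the wild-type label. Under the knockout label it read 1866, 1411 and 977 CPM unstimulated and 2437, 2361 and 2062 CPM stimulated. Neither rise passed the test, and with niacin its groups overlapped. The gene mt-Nd4 had -1.53, -1.11, -2.65 and -1.33, and mt-Nd5 fell in all 4. Without replicates 1 and 2 of the niacin-treated stimulated wild-type-labelled group the -2.65 became -1.88, still called. The rRNA gene mt-Rnr2 read 427, 414 and 1724 CPM in that group against 2484, 2240 and 2445 CPM unstimulated. It fell there by the test (-1.48), but had -0.49 and no call once replicates 1 and 2 were left out. The other rRNA gene, mt-Rnr1, passed nowhere. Counts on the mitochondrial genome made up 0.187 to 0.937% of each library, with next to none on the untested protein genes named above. The lowest shares, 0.187% and 0.216%, were those of replicates 1 and 2 of the niacin-treated stimulated wild-type-labelled group, whose replicate 3 had 0.605%. The part of this in the results with niacin was not tested.

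Niacin changed no mitoribosomal gene past the threshold. In each of the 4 niacin comparisons 0 of 78 passed edgeR's test, where 0%, 0%, 0% and 0.00592% of all genes did (unstimulated wild-type label, unstimulated knockout label, stimulated wild-type label, stimulated knockout label). At an unadjusted p under 0.05 the members numbered 0, 2, 2 and 2, against 2.71%, 7.96%, 9.96% and 5.22% of all genes. Medians over the 78 were -0.09, -0.00, 0.05 and 0.09. The smallest adjusted p was that of Mrpl1 in stimulated wild-type-labelled cells (log2 fold change -0.77, adjusted p = 0.41). Limma voom called 4 members higher and 4 lower there. In the pairs that hold libraries which stand apart, the log2 changes of the members followed GC content: r was -0.60 over the 78 genes in unstimulated knockout-labelled, 0.60 in stimulated wild-type-labelled and -0.30 in unstimulated wild-type-labelled cells, against 0.18 in stimulated knockout-labelled cells.

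Between the genotype labels 1 of 78 passed, and only in stimulated cells with niacin, where 1.44% of all genes passed in either direction and 0.575% upward. That gene was Mrps22, whose values are given above: 47.0, 48.9 and 46.6 CPM under the knockout label against 28.9, 36.5 and 31.0 CPM under the wild-type label. The log2 difference was 0.56 ± 0.14 (edgeR, adjusted p = 0.047), higher in the cells labelled knockout. The call was lost in 11 of 15 alternatives, with adjusted p from 0.0012 to 0.38, among them leaving out any knockout-labelled library (0.54 to 0.58) or wild-type-labelled replicate 1 (0.49) or 2 (0.66). In the other 3 conditions 0 of 78 passed, against 0.0415% of all genes unstimulated, 0.0355% unstimulated with niacin and 0.113% stimulated. At an unadjusted p under 0.05 the members higher and lower under the knockout label numbered 5 and 2 in unstimulated cells (10.4% of all genes in either direction) and 0 and 0 there with niacin (0.983%). In stimulated cells they numbered 6 and 0 (8.45%), and 18 and 1 with niacin (19.4%).

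In stimulated cells the small differences leaned one way. The 78 genes had a median log2 difference of 0.13 stimulated and 0.19 stimulated with niacin, knockout over wild-type label, the latter 0.26 without replicates 1 and 2 of the wild-type-labelled group. In 23 and 27 of them every knockout-labelled library lay above every wild-type-labelled one, against 9.34% and 12.5% of all genes, and in 1 and 1 the reverse held, against 11.2% and 14% of all genes. Their share of all counts was 0.480 ± 0.030% and 0.522 ± 0.001% in stimulated cells and 0.481 ± 0.018% and 0.545 ± 0.017% with niacin (wild-type label first, SD, n = 3). Unstimulated, the medians were -0.13 and, with niacin, -0.01. The stimulated difference with niacin ran against GC content (r = -0.48 over 78 genes), and without niacin hardly did (r = -0.05). The unstimulated difference went up with GC content (r = 0.52, and 0.35 with niacin). Whether GC content plays a part was not tested.

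**Figure D5:**
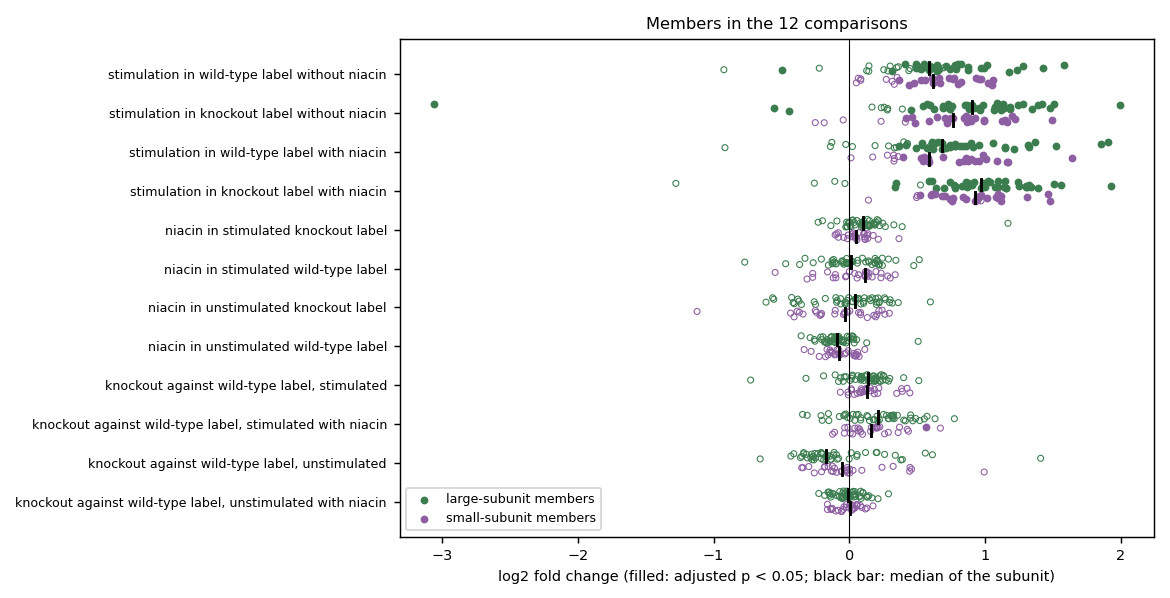
Log2 fold change (horizontal axis) of each member in the 4 stimulation, 4 niacin and 4 genotype-label comparisons (rows), large subunit in green and small subunit in purple, with filled points past an adjusted p of 0.05 and black bars at the subunit medians. The stimulation rows lie mostly to the right of 0, and outside them the 1 filled point is Mrps22 at 0.56.

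The size of the response to stimulation was compared between backgrounds by interaction terms in the same edgeR fit. No member passed for the difference with and without niacin in either label, nor for the difference between the labels without or with niacin, where at most 0.00592% of all genes passed. At an unadjusted p under 0.05 2, 1, 11 and 7 members were higher and 0, 0, 1 and 0 lower, against 7.36%, 6.77%, 10.5% and 11% of all genes. Medians of the differences were 0.13 and 0.11 (with niacin minus without, wild-type then knockout label) and 0.22 and 0.21 (knockout minus wild-type label, without then with niacin). A count of calls that is larger in one background, such as 68 against 54, is therefore not shown to differ gene by gene. Over the 78 genes the differences followed GC content, with r of 0.65, 0.56, -0.42 and -0.50 in the same order. The part of GC content in them was not tested.

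Many mitoribosomal genes share a start region with a neighbour on the other strand. Within 1000 bp, 18 of 78 (23.1%) had a protein-coding gene starting head to head, against 6.89% of all protein-coding genes and 10.6% of those tested. Mrps11 and Mrpl46, whose start regions overlap on opposite strands, are not among the 18. Of 17 neighbours tested 5, 5, 7 and 6 rose and 4, 3, 5 and 3 fell, where 23.4%, 25.2%, 26% and 24.5% of all genes were called higher and 21.7%, 27.5%, 26.6% and 25.3% lower. Nothing particular to the neighbours is read from these counts. Ncapd2, a condensin gene whose start lies 100 bp from that of Mrpl51, rose by 1.78, 2, 2.17 and 2.32 while Mrpl51 rose by 0.65, 1.07, 0.84 and 1.16. Psma2, Ska3 and Fau, which face Mrpl32, Mrpl57 and Mrpl49, also rose in all 4. Eme2, Pnpla7 and Cyb5rl, which face Mrps34, Mrpl41 and Mrpl37, fell in all 4, and Mrpl41 rose under the knockout label (0.74 and 0.64) with 0.28 and 0.35 under the wild-type label.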

How the data were processed

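The deposited table holds read counts per gene, made by the authors with Trimmomatic 0.38, STAR 2.7.0e and featureCounts 1.6.3 on GRCm38.p5 (mm10 is named too), per the submitters' processing notes. Total RNA had been amplified (SMART-seq V4) and read as paired ends, per the labels' protocols. The sources used here do not give the strand setting or the annotation release. Symbols came from GENCODE vM21, where 72 of the 78 member IDs had the same position, and coordinates are the deposited ones. Each of the 23 count columns had a sample. Counts carry sampling error, with library totals of 13205565 to 30090018. It is largest for Mrpl53, whose lowest count in a library was 4. The lowest counts of Mrpl47, Mrps33, Mrps36 and Mrpl50 were 55, 67, 72 and 85.

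The test was edgeR 4.0.16's quasi-likelihood F test, with 1 mean per group over all 23 libraries, TMM, and filterByExpr at a minimum count of 10, which kept 16882 genes. Benjamini-Hochberg adjustment ran over these genes in each comparison, with a threshold of 0.05. The common biological coefficient of variation was 27.4%, with 15 residual degrees of freedom. RPKM used the length column that the authors deposited. Alternatives were DESeq2 1.42.0, RLE and upper-quartile scaling, no filter, the replicate number as a block, limma 3.58.1 voom with quality weights, only the compared groups, and leaving out libraries. The coding-transcript length (GENCODE vM21 basic set) was added after seeing the data. The fit was tested on simulated data. R 4.3.3, Python 3.11.15, pandas 2.3.3, numpy 2.4.6 and scipy 1.17.1 were used.

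Members and lists were chosen with earlier results of these data known. Named are, per subunit, the 6 members with the highest and the 6 with the lowest mean change on stimulation at 5 CPM or more, the 3 highest and 3 lowest in RPKM, every member called by niacin or genotype label, and a fixed set (the stalk, Mrpl58, Mrps12, the S18 family, Mrps30, Mrps36 and regulators of the pathway). Other genes were named after their values were seen. Promoters shown are, per motif, up to 3 members with the highest mean change, 1 window and a match within 120 bases that touch no annotated exon. Then follow 2 with no match within those 120 bases.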

Additional observations from a re-analysis of the deposited data

How the results depend on the processing

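No call of a named member reversed: of 109 such calls 71 were kept under every alternative run for them, and over all alternatives 1346 of 1493 values kept their call and 147 lost it. The counts of risen members in the 4 stimulation comparisons stayed within 1.5 times of the reported ones, except for 32 with niacin under the wild-type label when replicates 1 and 2 of its stimulated group were both left out, which leaves 1 library there. Leaving out each library in turn gave 39 to 52 risen (0 to 1 fallen) in wild-type-labelled cells, 62 to 71 (1 to 3) in knockout-labelled cells, and with niacin 49 to 60 under the wild-type and 53 to 66 under the knockout label (0 to 0 fallen in each). The count of fallen members was 0 without a filter (wild-type label), 1 with only the compared groups (knockout label), 1 with voom (wild-type label with niacin), and 1 with voom, with only the compared groups and without replicate 3 of the unstimulated knockout-labelled group in the fit (knockout label with niacin).

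The single call by genotype label, in stimulated cells with niacin, became 3 higher with DESeq2, 12 without replicate 3 of the unstimulated knockout-labelled group in the fit and 19 (1 lower) with voom, and 0 with RLE or upper-quartile factors, with the replicate block, with only the compared groups and with both libraries out. Leaving out each library gave 0 to 3 there, and 0 to 1 lower for niacin in stimulated wild-type-labelled cells. Voom gave 4 higher and 4 lower for that niacin comparison, 1 lower for niacin in unstimulated wild-type-labelled cells, 2 higher between labels in stimulated cells, 6 higher for the niacin difference under the wild-type label, and 5 higher and 1 lower for the label difference with niacin. Without a filter 1 member was lower for niacin in unstimulated knockout-labelled cells and 1 higher between labels in unstimulated cells. The cause of these shifts was not tested.

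Whether replicate numbers pair the libraries was not settled. Same-numbered libraries had correlations of -0.18 to 0.29 between groups, and differently numbered ones were not set beside them. With the replicate block 54, 64, 58 and 65 members rose in the 4 stimulation comparisons and 1, 3, 0 and 0 fell, against 68 risen without it in the last. It ended the call by genotype label, on Mrps22 (0.57), and of the other named calls those on Mrpl9 (0.32), Mrpl47 (0.80) and Mrps12 (0.60) in the last comparison.

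The log2 ratio of the subunits moved with its definition. In the order unstimulated wild-type label, with niacin, unstimulated knockout label, with niacin, then the stimulated groups likewise, summed CPM gave 0.98, 0.94, 0.85, 0.94, 1.06, 1.04, 1.03 and 1.06. The median log2 RPKM gave 0.73, 0.85, 0.80, 0.86, 0.70, 0.74, 0.68 and 0.74, and subunits by structure 1.30, 1.30, 1.23, 1.28, 1.46, 1.45, 1.43 and 1.44. Without the 3 highest genes of each subunit it was 1.41, 1.40, 1.36, 1.42, 1.47, 1.47, 1.43 and 1.46, and with coding-transcript length 1.01, 0.97, 0.89, 0.97, 1.1, 1.07, 1.06 and 1.09. Leaving out each library moved it to 1.17 to 1.21, 1.15 to 1.21, 1.07 to 1.19, 1.16 to 1.18, 1.32 to 1.35, 1.31 to 1.35, 1.30 to 1.32 and 1.31 to 1.34.

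Limits are the low level of Mrpl53, exon overlaps of 32 members counted with an unstated strand setting, groups of 2 to 3 libraries of unstated origin, and the libraries that differ with GC content.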
